A study of Ovis aries with 36 samples.

Results

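The loci described here carried an Ensembl identifier, spanned at most 400 bases from start to end, and gathered at least 36 counts over the 36 samples. Of the 31136 loci in the count tables, 141 met this rule. The loci were chosen by their annotation, their span and their summed count, so their summed level is given as a description. RNA-Seq was carried out on 9 muscles of each of 4 unrelated male Poll Dorset cross-bred lambs, all 14 months old. The lambs came from different flocks and were raised on grassland. From weaning to slaughter all 4 were given soy crop with added sorghum grain. Each sample was a superficial piece of the muscle belly taken at slaughter. The muscles were the Supraspinatus (SS) of the shoulder, the Psoas major (PM) and Longissimus lumborum (LL) of the loin, and, from the hip and thigh, the Adductor (AD), Rectus femoris (RF), Gluteus medius (GM), Gluteobiceps (GB), Semitendinosus (ST) and Semimembranosus (SM). Each muscle was represented by 4 samples, 1 per lamb, and no treatment or genotype separated the groups. Since the samples were whole tissue, fewer cells of a type and less RNA per cell cannot be told apart in any difference below.

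Annotated loci as short as these are commonly genes of small non-coding RNAs, single-exon protein genes such as those of histones, or partial and processed copies of longer genes. Among the small RNAs, small nuclear RNAs form the core of the spliceosome, small nucleolar RNAs guide the chemical modification of ribosomal RNA, and microRNAs are cut from short hairpins and repress messenger RNAs. Libraries made from fragmented RNA recover transcripts shorter than a usual fragment poorly, and reads that match several copies of nearly equal sequence are left out where, as here, uniquely mapped reads are used. The count tables gave these loci an identifier and a position but neither a name, a class nor a sequence, and none of the identifiers was listed in the table of sheep genes used here, which follows another assembly. The loci are therefore named by their locus number and their Oar_v3.1 position as the tables give it, and their type was not determined.

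Most short annotated loci gathered few counts or none. The tables held 2742 annotated loci of 400 bases or less, of which 1242 had no count in any of the 36 samples and 1359 had between 1 and 35 counts, leaving the 141, or 5.14%. Among the 22021 annotated loci longer than 400 bases, 13063 (59.3%) reached the same 36 counts. The share rose with span: 11 of 826 loci of up to 100 bases reached 36 counts, against 46 of 1448 between 101 and 200 bases, 39 of 227 between 201 and 300 bases and 45 of 241 between 301 and 400 bases. The 11 shortest spanned less than the read length of 100 bases. At the limits of the rule, 3 loci were kept with exactly 36 counts and 3 of the right span were left out with 35, while the longest locus kept spanned 399 bases with 101 counts and the shortest annotated locus beyond the limit spanned 402 bases with 205 counts. In 97 of the 141 loci (68.8%) the span was a multiple of 3 bases, against 39.6% of all annotated loci of this length. This contrast partly restates span, since longer spans were more frequent among the 141. From 301 to 400 bases the span was such a multiple in 37 of 45 loci, against 176 of 241 annotated loci. The counts were 33 of 39 against 171 of 227 from 201 to 300 bases, and 18 of 46 against 458 of 1448 from 101 to 200 bases. Up to 100 bases they were 9 of 11 against 281 of 826.

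Depth was 3699148 to 6427422 counts per sample, and 4 unannotated loci took between 65.7 and 78.3% of them. Levels are given as CPM, the counts scaled to a common library size after TMM normalization, on which scale 3 counts, taken as the smallest number that can be told from 0, stood at 0.366 to 1.03 CPM. This floor covers counting error only, since reads without molecular identifiers are not independent molecules. Of 7 genes of slow muscle fibres, 6 could be placed on a single locus by coordinates, and all 6 were lowest in ST, with a mean of 225 CPM in SS against 23.2 CPM in ST for the slow troponin T gene TNNT1. The animals were 4 and the sequencing lanes were also 4, with 9 samples each, but the lane of each sample was not given in the sources used here, so animal and lane cannot be told apart.

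The 141 loci held 2594020 counts, and a handful of them held nearly all. XLOC_015032 alone took 57.3% of these counts, the 5 most counted loci took 93.0% and the 10 most counted took 97.4%, whereas the median locus had 105 counts over all samples. In a single sample the loci took between 0.672 and 1.83% of all counts, with a mean of 1.60% ± 0.134 (SD, n = 4) in SM, the highest, and of 0.969% ± 0.265 (SD, n = 4) in RF, the lowest. The 4 SM samples lay between 1.49 and 1.78%, above the RF samples at 0.672 to 1.25%, but within the range of the GB samples at 1.06 to 1.83%.

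In order of summed counts the 10 most counted loci were XLOC_015032 (20:25015204-25015535), XLOC_014214 (2:196874711-196874768), XLOC_012903 (2:52567379-52567658), XLOC_025997 (7:23928587-23928924), XLOC_030467 (X:56341236-56341530), XLOC_004159 (11:9182705-9182869), XLOC_016294 (21:40540247-40540438), XLOC_015501 (20:29016883-29017167), XLOC_025152 (6:90345863-90346027) and XLOC_007698 (14:62565219-62565387). Divided by span the order differed. XLOC_014214, which spans only 57 bases, had a median of 35718 CPM per kb of span. XLOC_015032, which spans 331 bases, had 21631 CPM per kb. Reads of 100 bases reach beyond a locus of 57 bases, so these values do not rank the loci by abundance per length. The next 3, XLOC_012903, XLOC_025997 and XLOC_030467, had medians of 2998, 2483 and 1787 CPM per kb. Of all 141 loci, 2 had a median level of 1000 CPM or more, 4 lay between 100 and 1000 CPM, 12 between 10 and 100 CPM, 32 between 1 and 10 CPM, and 91 below 1 CPM.

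**Figure D1:**
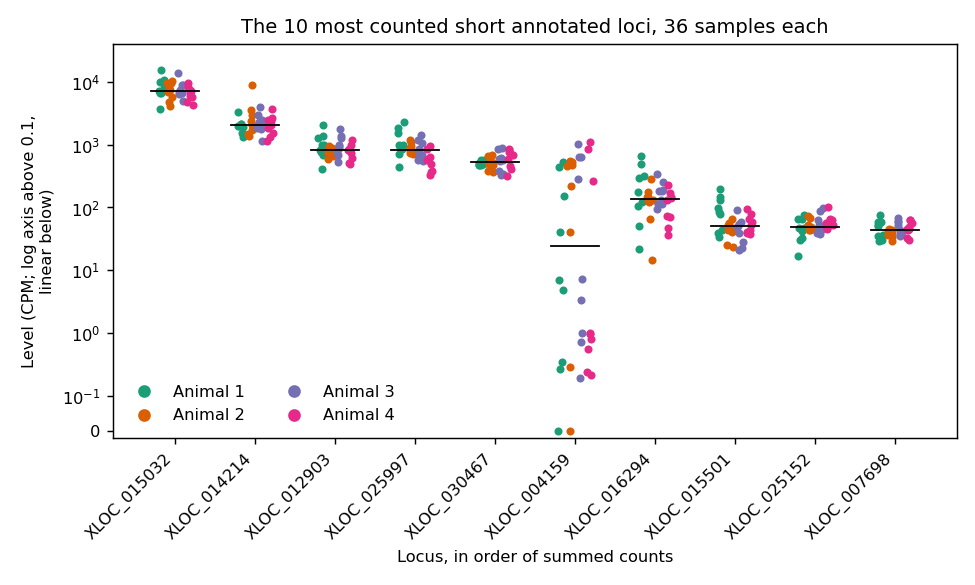
Level in CPM (vertical axis, logarithmic above 0.1 and linear below it) of the 10 most counted short annotated loci (horizontal axis) in the 36 samples, with 1 point per sample coloured by animal and a line at the median. XLOC_015032 lies between 3742 and 15417 CPM in every sample, while XLOC_004159 runs from 0 to 1084 CPM.

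After the filter on low counts, 51 of the 141 loci could be tested, and the other 90, with 36 to 202 counts each, were not tested. The 90 held 0.270% of the counts of the 141. The joint test of the 9 muscles, edgeR's quasi-likelihood test with animal as a block and Benjamini-Hochberg adjustment over all 12461 tested loci, called 3 of the 51 at an FDR of at most 0.01. This is 5.88%, beside 8.94% of all tested loci and 8.65% of the tested annotated loci over 400 bases. At an unadjusted p under 0.05, 15 of the 51 passed, where 33.3% of all tested loci passed, and 11 passed at an FDR of 0.05, where 19.1% of all tested loci passed. Without the animal block the test called 1 of the 51, XLOC_030468, beside 2.57% of all tested loci. Without animal 3 it also called 1, XLOC_017184, and without animal 1, 2 or 4 it called 3, 2 and 3, of which 2, 2 and 1 were among the 3 called with all animals.

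Compared pair by pair, with an absolute log2 fold change (log2FC) above 1 and an FDR of 0.01 or less required, 4 of the 51 loci were called in at least 1 of the 36 pairs of muscles. This is 7.84%, beside 9.19% of all tested loci and 7.41% of the tested annotated loci over 400 bases. They made 10 calls, out of 3360 over all loci, in 9 pairs. SM was the higher muscle in 3 of the 10 calls and never the lower. PM was likewise the higher in 3 and never the lower. ST was the lower in 4 and the higher in 1, and GM took part in none. All calls with PM higher or ST lower were made by XLOC_030468 alone. Those with SM higher were made by XLOC_015032 and XLOC_005411. These tallies are therefore no pattern over the loci, and the direction of calls over all tested loci was not counted. In each of the 10 calls the 4 samples of one muscle lay wholly above the 4 of the other. The calls were chosen on these same samples, so this separation adds no support to them. Its frequency among all called loci was not computed. The called loci numbered 1 without the animal block and 1 without animal 3, and the calls numbered 5 without animal 1, 1 without animal 3 and 5 without animal 4.

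XLOC_015032, the most counted of the loci, was highest in SM. In SM it stood at 15417, 9603, 13957 and 9640 CPM in animals 1 to 4, and in RF at 3742, 5660, 7099 and 4732 CPM. LL gave 7192, 4068, 4984 and 7138 CPM. All SM samples thus lay above all RF and LL samples. The locus, Ensembl ENSOARG00000023715, lies 316 bases from its nearest neighbour among the assembled loci and overlaps none.

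The mean level of XLOC_015032 was 12154 ± 2984 CPM in SM (SD, n = 4, as for the other muscles), 8310 ± 1403 in ST, 8032 ± 1620 in AD, 7902 ± 2165 in GM, 6927 ± 2234 in GB, 6855 ± 1684 in SS, 6813 ± 818 in PM, 5846 ± 1569 in LL and 5308 ± 1428 in RF. Only SM against RF and SM against LL were called among its 36 pairs. SM exceeded RF by a log2FC of 1.18 (FDR = 0.0034 in edgeR's quasi-likelihood test), with a mean difference within animals of 1.20 ± 0.286 (SE, 4 of 4 animals), in a comparison that called 0.859% of all tested loci. SM exceeded LL by 1.03 (FDR = 0.0092), with 1.06 ± 0.225 (SE) within animals and again 4 of 4 animals, where 1.01% of all tested loci were called. Between SM and SS, PM, GB, GM, AD or ST the log2FC lay between 0.52 and 0.82 and was not called, and the 8 muscles below SM were not told apart from each other by any pair. The joint test over muscles gave an FDR of 0.013, which misses the threshold.

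Both calls of XLOC_015032 depended on scaling and on which animals were included. SM had a lower mean TMM factor (0.891 ± 0.269, SD) than RF (0.991 ± 0.0772) and LL (0.987 ± 0.0853), and the 4 unannotated loci took 74.8% ± 3.59 of its counts against 69.9% ± 1.67 in RF. As a share of all counts, XLOC_015032 took 0.948 to 1.17% in SM, 0.360 to 0.708% in RF and 0.357 to 0.754% in LL, so the groups did not overlap on this scale either. On total counts without TMM the log2FC was 0.96 for SM against RF (FDR = 0.013) and 0.79 for SM against LL (FDR = 0.056), and neither was called. Between these scalings the median log2 difference of all tested loci moved by -0.17 for SM against RF and by -0.16 for SM against LL. Without animal 1 the values were 0.92 (FDR = 0.059) and 0.98 (FDR = 0.051). Without the animal block they were 1.20 (FDR = 0.012) and 1.06 (FDR = 0.024), and with single animals left out SM against RF kept its call without animal 2 and lost it without each of the others.

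**Figure D2:**
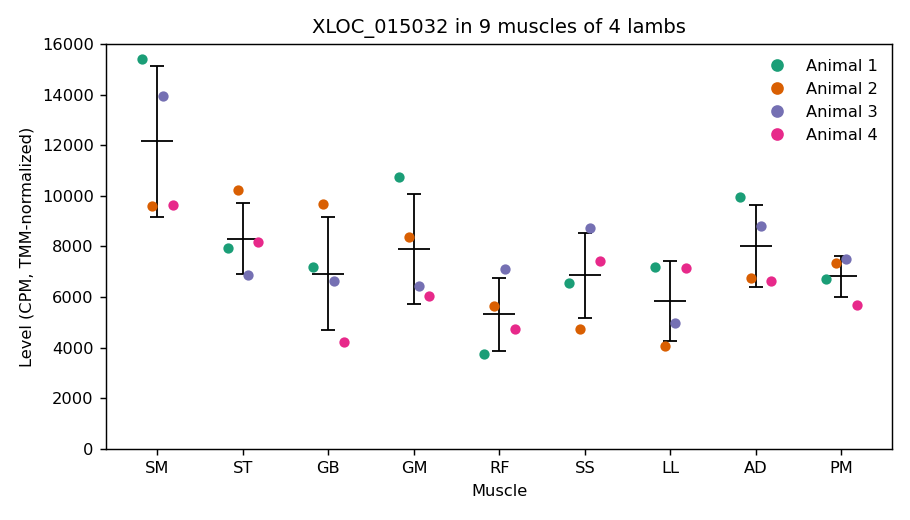
Level of XLOC_015032 in TMM-normalized CPM (vertical axis) in the 9 muscles (horizontal axis), with 1 point per sample coloured by animal, the mean as a horizontal line and the SD as a bar (n = 4). The 4 SM samples, at 9603 to 15417 CPM, lie above all RF and LL samples.

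XLOC_030468 (X:56351344-56351460, 116 bases, Ensembl ENSOARG00000024080) had the smallest p of the joint test, with an FDR of 0.00026, and made 6 of the 10 pairwise calls. It was lowest in ST, at 20.3, 26.9, 18.7 and 19.2 CPM in animals 1 to 4, and highest in PM, at 85.1, 41.4, 82.5 and 51.3 CPM. Every PM sample exceeded every ST sample, and the log2FC of ST minus PM was -1.61 (FDR = 3e-05), with -1.55 ± 0.350 (SE) within animals, in a comparison with 1.64% of all loci called. This call was kept under each of the 15 alternatives run on it, between -1.97 and -1.39.

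ST was also below 3 other muscles in XLOC_030468. Its level was 42.9, 31.1, 83.4 and 44.5 CPM in LL, a log2FC of ST minus LL of -1.19 (FDR = 0.0015, 1.54% of all loci called). In GB it was 32.3, 45.9, 43.5 and 60.6 CPM, a log2FC of ST minus GB of -1.08 (FDR = 0.0070, 0.963% of all loci called). In AD it was 32.7, 42.7, 56.9 and 46.8 CPM, a log2FC of ST minus AD of -1.04 (FDR = 0.0066, 1.56% of all loci called). None of these samples came down to the ST range. GM passed the FDR against ST as well (FDR = 0.0087) but its log2FC of -0.98 was within the limit of 1.

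PM exceeded 2 further muscles in the same locus. RF stood at 23.1, 27.6, 30.4 and 35.9 CPM, a log2FC of RF minus PM of -1.17 (FDR = 0.0037, 0.49% of all loci called). SS stood at 26.4, 37.0, 34.5 and 30.4 CPM, a log2FC of SS minus PM of -1.02 (FDR = 0.0088, 0.907% of all loci called). Neither muscle reached the lowest PM sample. The 6 calls of XLOC_030468 had the same sign in 4 of 4 animals. Without animal 3 the joint FDR rose to 0.020, and of the 6 calls the one of ST against PM remained. Without the animal block, too, only that call remained, and each of the other 5 was lost for at least 2 of the 4 animals when these were left out singly. On total counts without TMM, RF against PM (FDR = 0.012) and SS against PM (FDR = 0.033) were not called.

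XLOC_017184 (23:16654967-16655174, 207 bases) was called by the joint test (FDR = 0.00092) but in no single pair with a log2FC above 1. Its levels were 63.9, 35.4, 43.1 and 41.7 CPM in SM and 21.2, 28.4, 17.7 and 24.6 CPM in LL. PM gave 28.0, 19.2, 24.0 and 25.8 CPM. SM lay wholly above LL and PM, with a log2FC of 0.96 against LL (FDR = 0.00097) and of 0.90 against PM (FDR = 0.0017), each positive in 4 of 4 animals. Its joint FDR was 0.079 on total counts without TMM, 0.047 without animal 1, 0.010 without animal 4, just above the threshold, and 0.015 without the animal block.

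XLOC_015165 (20:30634401-30634734, 333 bases) was also called by the joint test (FDR = 0.0018). It was lowest in GB, at 4.09, 6.06, 5.39 and 6.07 CPM, and stood at 10.7, 9.40, 8.45 and 17.03 CPM in ST. ST exceeded GB without overlap, by a log2FC of 1.04 (FDR = 0.0082) and of 0.99 ± 0.221 (SE) within animals. SM, at 18.5, 8.24, 11.8 and 11.3 CPM, had the highest mean, and its log2FC against GB was 1.12 at an FDR of 0.014, which was not called. On total counts without TMM, the log2FC of ST minus GB was 0.55 (FDR = 0.084) and the joint FDR 0.023. The call of ST against GB was lost with each animal left out in turn, with log2FC values between 0.83 and 1.20, and the joint FDR lay between 0.012 and 0.033 without animal 2, 3 or 4 and at 0.0103 without the animal block. ST was among the muscles with the lowest TMM factors, 0.842 ± 0.117 (SD), and GB had the highest, 1.17 ± 0.164.

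XLOC_005411 (12:25727058-25727433, 375 bases) was called between SM and SS alone. SM stood at 7.18, 5.26, 8.03 and 7.14 CPM and SS at 1.84, 3.20, 2.13 and 2.90 CPM, without overlap. The log2FC was 1.40 (FDR = 0.0061, 2.91% of all loci called), with 1.35 ± 0.266 (SE) within animals, positive in 4 of 4. Its joint FDR was 0.018. SM was the highest muscle in this locus against every other, with log2FC values of 1.40 against PM (FDR = 0.011) and 1.37 against RF (FDR = 0.014) just outside the FDR limit. The call was lost on total counts without TMM (log2FC 1.20, FDR = 0.029), without the animal block (FDR = 0.017) and without animal 2, 3 or 4.

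**Figure D3:**
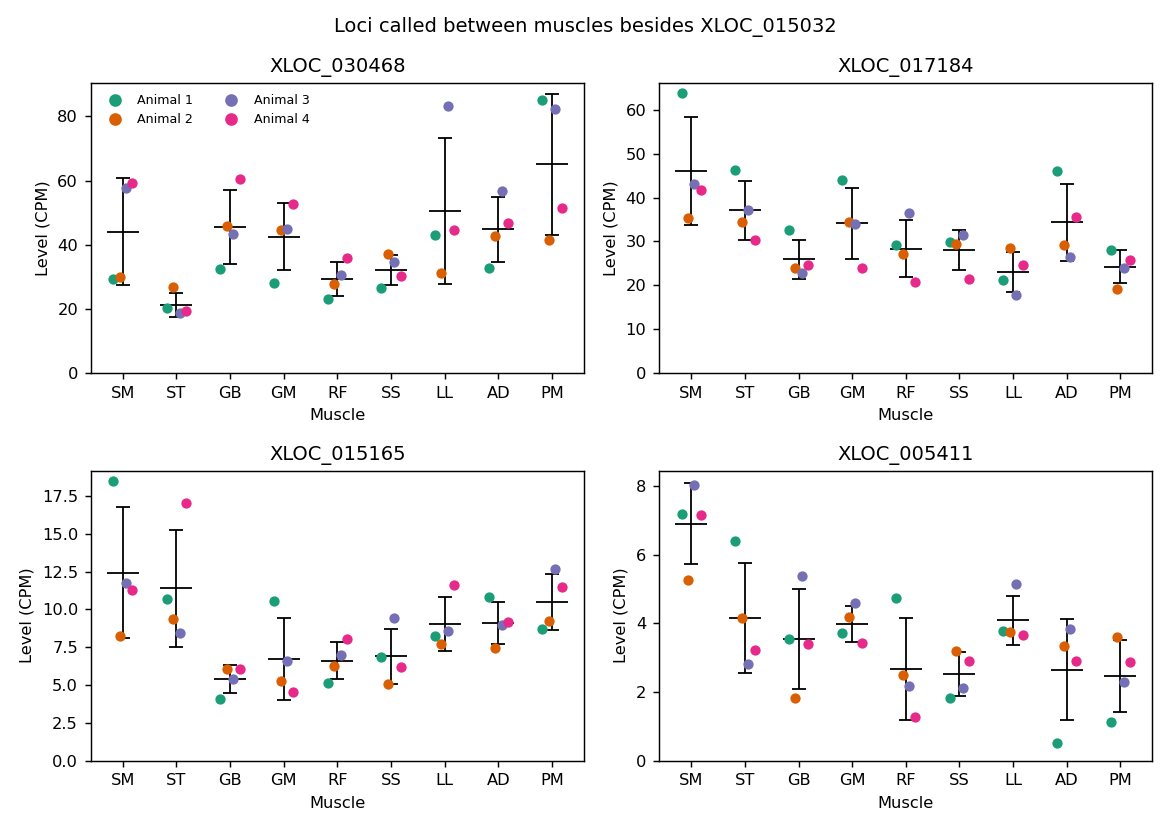
Levels in CPM (vertical axes) of the 4 other loci called between muscles, by the joint test or in a pair, in the 9 muscles (horizontal axes), with 1 point per sample coloured by animal, the mean as a horizontal line and the SD as a bar (n = 4). XLOC_030468 is lowest in ST at 18.7 to 26.9 CPM, XLOC_015165 in GB at 4.09 to 6.07 CPM, and XLOC_005411 is highest in SM at 5.26 to 8.03 CPM.

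Leaving out TMM moved all loci together. In 24 of the 36 pairs the median log2 difference over all tested loci shifted by more than 0.1, by at most 0.43 between ST and GB, and the values on total counts given above include this shift. Among the 10 called pairs no log2FC changed sign under any alternative.

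A pair of libraries of animal 1 were the highest for many of the loci. Over the 51 tested loci, SM of animal 1 was the highest of the 36 samples for 14 and AD of animal 1 for 11. The same count was not made over all tested loci, so it is not shown to be particular to the short ones. SM of animal 1 had the lowest TMM factor, 0.665, and AD of animal 1 the fewest counts. Their part in the results was measured by leaving both out, an alternative chosen after the data were seen. The joint test of muscles then called 3 loci, the same 3 as with all samples, and 3 loci made 7 pairwise calls. XLOC_015032 was no longer called, with a log2FC of 1.07 for SM against RF (FDR = 0.016) and of 0.92 for SM against LL (FDR = 0.041), and the FDR of XLOC_030468 between SS and PM rose to 0.011.

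Of the 10 most counted loci, none was called between muscles by the joint test at an FDR of 0.01, though 9 of them, all but XLOC_007698, were called with no filter on low counts. That fit gave XLOC_004159, at 1 to 5380 counts within SM, an FDR of 1.4e-223, so its calls are not read as differences. Among the other alternatives, only XLOC_015032 of the 10 was called, by the likelihood ratio test, DESeq2 and robust estimation. XLOC_014214, a locus of 57 bases, had 1155, 2036 and 8800 CPM as its lowest, median and highest level over the 36 samples, with a joint FDR of 0.045. Its highest sample was LL of animal 2, at 8800 CPM, while LL stood at 2011, 2335 and 1547 CPM in animals 1, 3 and 4. The SS samples, at 1881, 2978, 3912 and 3758 CPM, had the next highest mean, 3132 ± 929 CPM (SD, n = 4).

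XLOC_012903 and XLOC_025997 had like levels and like extremes. XLOC_012903 ranged over 404, 836 and 2034 CPM (lowest, median and highest of 36), with a mean of 1241 ± 592 CPM in SM and of 621 ± 264 CPM in RF (SD, n = 4) and a joint FDR of 0.099. XLOC_025997 ranged over 324, 837 and 2322 CPM, with 1186 ± 810 CPM in SM and 580 ± 241 CPM in RF and a joint FDR of 0.22. Both were highest in SM of animal 1, and in both the SM and RF groups overlapped.

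XLOC_030467 lies 9814 bases from XLOC_030468 on chromosome X and spans 294 bases. It ranged over 314, 525 and 888 CPM, and its lowest means were 403 ± 67.7 CPM in ST, 413 ± 98.0 CPM in SS and 448 ± 41.9 CPM in RF (SD, n = 4), the muscles in which XLOC_030468 was also lowest. Its joint FDR of 0.059 was above the threshold. In ST it stood at 493, 378, 332 and 411 CPM, and in GM, the highest muscle at 645 ± 94.3 CPM, at 549, 665, 600 and 767 CPM. The GM samples lay above the ST samples. These muscles were picked as the highest and lowest mean, and no pair was called, so the separation adds no support.

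The other 4 most counted loci without a call between muscles were less alike in spread. XLOC_016294 (191 bases) ranged over 14.6, 137 and 664 CPM with a joint FDR of 0.50. XLOC_015501 (284 bases) ranged over 21.2, 51.2 and 199.9 CPM with an FDR of 0.11, XLOC_025152 (164 bases) over 16.6, 49.2 and 102 CPM with an FDR of 0.16, and XLOC_007698 (168 bases) over 29.4, 43.3 and 76.9 CPM with an FDR of 0.11. The narrowest of the 4 was XLOC_007698, whose highest sample was 2.61 times its lowest. Over the 46 tested loci with a count in every sample, the ratio of highest to lowest sample was 2.48 to 64.3 with a median of 5.86.

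XLOC_004159, on chromosome 11 and 164 bases long, was either nearly absent or strongly counted. Its level was under 1 CPM in 12 samples, between 1 and 10 CPM in 6, between 10 and 100 CPM in 2 and above 100 CPM in 16. In SM it stood at 0.342, 216, 1031 and 854 CPM in animals 1 to 4, from 1, 1519, 3852 and 5380 counts. In PM the values were 528, 542, 635 and 1.00 CPM, and in AD 7.11, 0.291, 0.732 and 0.968 CPM.

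Neither the muscle nor the animal separated the high samples of XLOC_004159 from the low ones. Samples above 100 CPM were found in 8 of the 9 muscles, AD being the exception, and in 3, 6, 4 and 3 of the 9 samples of animals 1 to 4. The joint FDR was 0.34 for muscles and 0.90 for animals. With no filter on low counts it was 1.4e-223 for muscles and 6.8e-12 for animals, and every other alternative run on this locus kept both above 0.01. The fit with no filter took in every locus with at least 1 count. As XLOC_004159 ran from 1 to 5380 counts within SM, those unfiltered values are not read as differences between muscles or animals. Its neighbours XLOC_004158 and XLOC_004161, also 164 bases long and within 26070 bases of chromosome 11, had 68 and 55 counts over all samples.

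**Figure D4:**
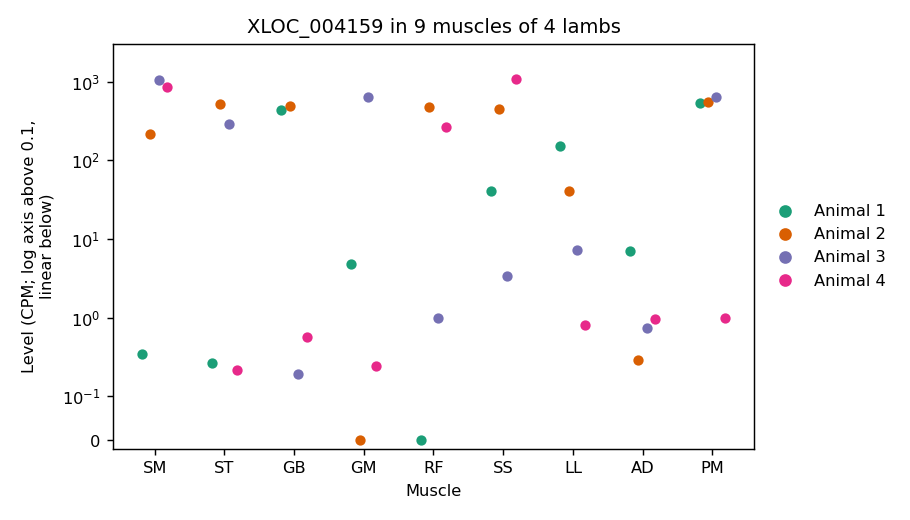
Level of XLOC_004159 in CPM (vertical axis, logarithmic above 0.1 and linear below it) in the 9 muscles (horizontal axis), with 1 point per sample coloured by animal. High samples, above 100 CPM, and samples under 1 CPM stand side by side within 6 of the 9 muscles.

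The loci were next compared between the animals, which were the replicates of every comparison between muscles. The joint test of the 4 animals, with muscle in the model, called 8 of the 51 at an FDR of at most 0.01, or 15.7%, beside 17% of all tested loci and 14.2% of the tested annotated loci over 400 bases. At an unadjusted p under 0.05, 21 of the 51 passed, where 41.1% of all tested loci passed. Without SM and AD of animal 1 the test called 5, and leaving out single animals gave 5 to 8 calls, with 5 without animal 1 and 5 without animal 4. Nothing in the labels groups the animals further, and the flock of each is not given, so animal and flock of origin cannot be told apart.

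The smallest p was that of XLOC_004616 (11:42755263-42755454, 191 bases), with an FDR of 4.7e-12. Over the 9 muscles its lowest, median and highest levels were 0.897, 7.73 and 22.9 CPM in animal 1 and 2.68, 3.30 and 6.94 CPM in animal 4. In animal 2 they were 0, 0.156 and 0.900 CPM, and in animal 3 0, 0.414 and 0.663 CPM, which is below or near the floor of 3 counts. Animal 1 was the highest in 7 muscles and animal 4 in the other 2, and the lowest was always animal 2 or animal 3. The 17 samples in which it reached the level of the filter on low counts were 8 of animal 1 and 9 of animal 4, so the locus entered the test only through the animals in which it was high, and its FDR is given as a description. With no filter its FDR was 2.8e-88. That value adds no support, since the same fit gave 1.4e-223 between muscles for XLOC_004159, which was uneven within muscles.

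XLOC_003905 (11:42662403-42662594), also 191 bases long and 92669 bases from XLOC_004616, had another order of animals. Its lowest, median and highest levels were 0, 0.396 and 3.71 CPM in animal 1 and 0, 0.146 and 0.537 CPM in animal 2. Animal 3 gave 2.01, 4.85 and 12.3 CPM and animal 4 gave 1.10, 5.22 and 7.55 CPM. Animals 3 and 4 were the highest in all 9 muscles, in 5 and 4 of them, and the FDR was 1.6e-07. It too entered the test mainly through the animals in which it was high, reaching the filter level in 9 samples of animal 3 and 7 of animal 4, against 2 of animal 1 and 0 of animal 2. Between muscles the FDR of this locus was 0.86.

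Another pair of loci between them, XLOC_003911 and XLOC_004614, completed a group of 4 loci of 191 bases within 93051 bases of chromosome 11. XLOC_004614 was called between animals (FDR = 0.0078), with a median of 4.10 CPM in animal 1 against 1.31, 1.65 and 1.51 CPM in animals 2, 3 and 4. It reached the filter level in 7 samples of animal 1 and in 3, 2 and 3 of animals 2, 3 and 4. The call was lost without animal 1 (FDR = 0.80), animal 2 (FDR = 0.011) or animal 4 (FDR = 0.0104), with DESeq2 (FDR = 0.026), on total counts without TMM (FDR = 0.0113), with robust estimation of the spread (FDR = 0.029) and without SM and AD of animal 1 (FDR = 0.099). XLOC_003911 had medians of 2.39, 1.20, 1.34 and 1.29 CPM and an FDR of 0.032. The ranges of the animals overlapped in both. Of the 11 annotated loci of exactly 191 bases, 6 were among the 141. Loci of equal span can be copies of each other, and the counts of near-identical copies are then uncertain, which could not be checked here.

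**Figure D5:**
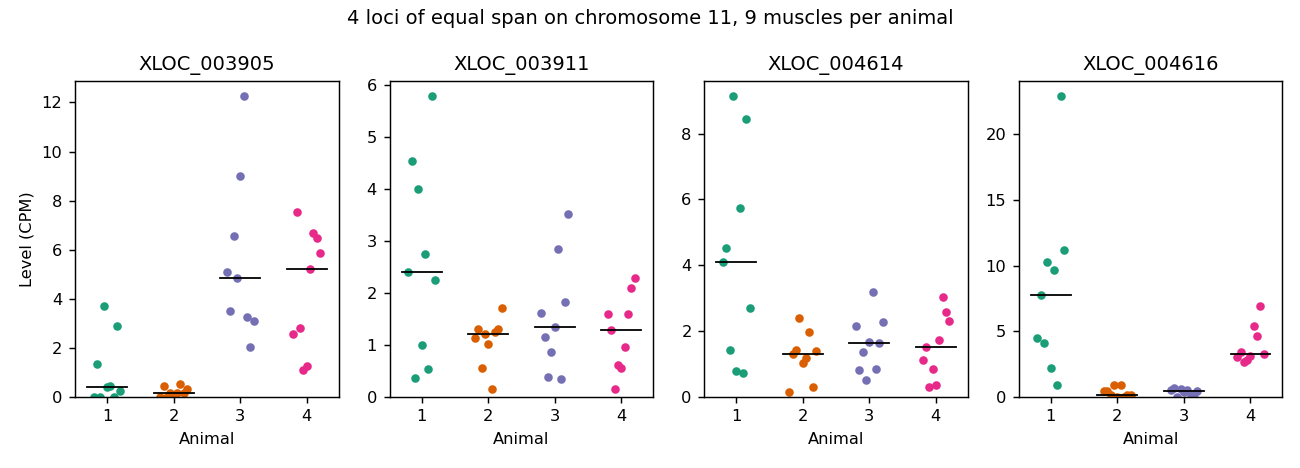
Levels in CPM (vertical axes) of the 4 loci of 191 bases on chromosome 11 by animal (horizontal axes), with 1 point for each of 9 muscles and a line at the median. XLOC_004616 is at 0.897 CPM or more in every sample of animals 1 and 4, and animal 2 reaches 0.900 CPM. The medians of XLOC_003905 are highest in animals 3 and 4, at 4.85 and 5.22 CPM.

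The other 5 loci called between animals each had 1 animal that stood most often at an extreme. XLOC_028867, 252 bases on an unplaced scaffold, was lowest in animal 1 in 8 of 9 muscles, with medians of 3.02, 4.52, 5.60 and 5.02 CPM in animals 1 to 4 (FDR = 0.0020). XLOC_011611 (18:59088905-59089180, 275 bases) was lowest in animal 4 in 7 of 9 muscles, with medians of 13.6, 6.55, 10.8 and 5.45 CPM (FDR = 0.00022). XLOC_015501, with medians of 83.4, 46.2, 49.5 and 52.8 CPM, was highest in animal 1 in 6 of 9 muscles (FDR = 0.0038). XLOC_025997 was lowest in animal 4 in 6 of 9 muscles, with medians of 986, 869, 797 and 570 CPM (FDR = 0.0041). XLOC_016780 (22:3348126-3348402, 276 bases) was lowest in animal 2 in 7 of 9 muscles, with medians of 12.9, 8.33, 11.9 and 11.8 CPM (FDR = 0.0068). Within each of these 5 loci the ranges of all animals overlapped. Without SM and AD of animal 1, XLOC_015501 had an FDR of 0.058 and XLOC_025997 of 0.015. Without the animal at their extreme, XLOC_028867 had an FDR of 0.20 (animal 1), XLOC_011611 of 0.011 (animal 4), XLOC_015501 of 0.37 (animal 1), XLOC_025997 of 0.37 (animal 4) and XLOC_016780 of 0.68 (animal 2), so none of the 5 calls was kept. The animal left out was picked on these same values, so a weaker call was partly fixed in advance. XLOC_028867 also missed the threshold without animal 3 (FDR = 0.0102) and XLOC_015501 without animal 2 (FDR = 0.012) and with robust estimation of the spread (FDR = 0.023). XLOC_025997 was lost with robust estimation (FDR = 0.014), and XLOC_016780 without animal 3 (FDR = 0.023) and on total counts without TMM (FDR = 0.034).

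Several of the 141 loci lay close together. With neighbours linked within 100000 bases, 14 groups of 2 or more were found. The largest lay on chromosome 20, where 6 loci stood at 20:29931155-29981093 and 4 at 20:30634401-30663332, and 11 of the 12 loci of chromosome 20 lay between 29 and 31 Mb. All 10 loci of these 2 groups had spans that are multiples of 3 bases, of 321, 333, 336 or 393. In the group of 4, XLOC_015165 was the highest, and its neighbours XLOC_015166 and XLOC_015541 had medians of 1.43 and 1.97 CPM with joint FDRs between muscles of 0.031 and 0.83. The 6 others together had 758 counts, and only XLOC_015149 among them was tested, with a joint FDR of 0.46.

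On chromosome 18, 4 loci of 69 to 108 bases lay at 18:64497853-64578981 with 203 counts in all, too few to be tested. The span of 164 bases was the most frequent, with 8 of the 141 loci out of 19 annotated loci of that span, and XLOC_004159 and XLOC_025152 held nearly all of their 60926 counts. A further 3 loci spanned 57 bases. XLOC_014214 had 467280 counts, XLOC_029166 on an unplaced scaffold 8413 and XLOC_023692 on chromosome 5 1201. XLOC_029166 and XLOC_023692 were not called between muscles (FDR = 0.60 and 0.39).

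In the 51 tested loci the muscle accounted for a median of 24.7% of the variance of log2 CPM and the animal for 14.0%. The medians over all 12461 tested loci were 28.7 and 15.4%, and values of 22.9 and 8.57% would arise on average with no effect. The residual SD had a median of 0.43 on the log2 scale in the 51 loci and of 0.38 over all tested loci. Of the 51, 24 were above the filter on low counts in all 36 samples and 4 in fewer than 9. By mean log2 level, SM was the highest muscle for 13 of the 51 loci and SS for 10, while RF was the lowest for 11 and GB and SS for 9 each. SM of animal 1 was by itself the highest sample for 14 of the 51. The highest and lowest muscle were not counted over all tested loci, so these counts are a description only.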

How the data were processed

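The authors aligned 100-base paired reads to Oar_v3.1 with TopHat2 2.0.13, assembled transcripts with Cufflinks 2.2.1 and merged them with the Ensembl annotation, and deposited HTSeq counts per locus, not normalized. The study used uniquely mapped reads for expression, and how strand and overlapping loci were treated is not given in the sources used here. Each table held 31530 entries for 31136 loci, each used once. The members and lists were chosen with earlier results of these data known.

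The software was edgeR 4.0.16, with DESeq2 1.42.0 as an alternative, under R 4.3.3 with limma 3.58.1. Loci were filtered with filterByExpr by muscle and TMM-normalized, and edgeR's quasi-likelihood test was fitted with muscle and animal to all 36 samples, with Benjamini-Hochberg adjustment. A log2FC comes from this fit and the SE from 4 within-animal differences of log2 CPM (prior count 2). Animal numbers come from the labels. Deviations from muscle means correlated by 0.236 on average over 144 same-animal pairs and by -0.0777 between animals. The negative value follows largely from subtracting the mean of the 4 animals and is no separate evidence. Samples of 1 muscle differed beyond sampling noise (chi-square per degree of freedom 5.48 to 38.5).

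Named were XLOC_015032, the loci called by the joint test of muscles (at most 15), the 10 most counted and the 5 with the smallest p between animals. Other loci were named after their values were seen. The lists of RNA classes and their protein partners, and of markers of skeletal muscle, adipocytes, endothelium, fibroblasts, blood and leukocytes, could not be paired with loci and gave no result. Alternatives were other tests, normalizations, filters, thresholds and sample sets.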

Additional observations from a re-analysis of the deposited data

Results flagged for a closer look

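For the 18 loci named by rule or called in a pair, and for their summed share of counts, a sample was singled out when its gap to the nearest other sample of its muscle (4 samples) or animal (9 samples) exceeded Dixon's critical share of the range. This held for 25 of 243 groups (10.3%). About 1 in 20 would arise in independent groups of normally distributed values, which these are not. CPM values are skewed, and each sample enters both a muscle and an animal group. Some of the loci were also chosen for small p between animals. The excess over 1 in 20 is therefore not read as a result. No cause was tested for any of them.

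Within muscles, XLOC_015501 had 5 such samples. It was high in AD of animal 1 (199.9 CPM, next 65.7), PM of animal 1 (133 CPM, next 58.6), GM of animal 1 (147 CPM, next 43.7) and RF of animal 2 (53.2 CPM, next 39.3), and low in SS of animal 2 (43.7 CPM, next 89.6). XLOC_004159 stood high in GM of animal 3 (633 CPM, next 4.86) and AD of animal 1 (7.11 CPM, next 0.968), and low in PM of animal 4 (1.00 CPM, next 528). XLOC_028867 was low in AD of animal 1 (2.11 CPM, next 4.52) and high in PM of animal 3 (12.4 CPM, next 5.15). XLOC_014214 was high in LL of animal 2, at 8800 CPM against 2335 in the next LL sample and 3606 in the next sample of animal 2.

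Single samples were also set apart in XLOC_003905 (RF of animal 3, 9.02 CPM, next 1.28), XLOC_016294 (GB of animal 4, low at 46.3 CPM, next 122), XLOC_007698 (ST of animal 2, low at 42.2 CPM, next 59.7) and XLOC_005411 (LL of animal 3, 5.15 CPM, next 3.77). The summed share of counts was high in ST of animal 2, at 1.54% against 1.09% in the next ST sample.

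Within animals, XLOC_015032 was set apart in SM of animal 3 (13957 CPM, next 8804), XLOC_030468 in PM of animal 1 (85.1 CPM, next 42.9), XLOC_015165 in SM of animal 1 (18.5 CPM, next 10.8) and XLOC_004616 in AD of animal 1 (22.9 CPM, next 11.2). The same held for XLOC_011611 in LL of animal 2 (13.4 CPM, next 7.32), XLOC_014214 in SM of animal 1 (3314 CPM, next 2152), XLOC_025152 in SS of animal 4 (102 CPM, next 65.1) and XLOC_005411 in SM of animal 4 (7.14 CPM, next 3.67).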

How the results depend on the processing

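The joint test of muscles, which called 3 loci, called 9 with the likelihood ratio test, 6 with DESeq2, 5 with robust estimation (chosen after the data were seen), 11 at an FDR of 0.05, 1 among spans of at most 200 bases, and 23 of 141 with no filter. The share of all tested loci called, 8.94% in the reported fit, was 17%, 13.1%, 9.87%, 19.1%, 8.94% and 8.26% under these settings. With no filter, all tested loci include every locus with at least 1 count, whereas the 141 have at least 36 by rule. The numbers and shares with no filter, here and below, are therefore not comparable. The loci called in a pair, 4 in all, numbered 7, 5, 5, 8, 1 and 15 under the same settings, 1 among spans of at most 300 bases, 2 with at least 10 counts in every sample and 9 with only the 8 samples compared. Of all loci, 9.19% were called in a pair in the reported fit and between 7.42 and 17.8% under these settings. The 10 pairwise calls numbered 19, 16, 11, 24, 6 and 85 under the same 6 settings, 6 among spans of at most 300 bases and 16 with only the 8 samples compared, while calls made up 0.749% of all comparisons of a locus in a pair in the reported fit and 0.673 to 1.56% under these settings. Between animals, 8 loci were called, against 18 with no filter, 4 with at least 10 counts in every sample, 5 with robust estimation, 5 without SM and AD of animal 1, 18 at an FDR of 0.05 and 3 among spans of at most 200 bases. All tested loci were called at 17% in the reported fit and at 10.3%, 21.6%, 17.3%, 13.7%, 28.7% and 17% under these settings. The stricter spans and counts leave fewer loci to test, 20 up to 200 bases, 35 up to 300 bases and 24 with at least 10 counts in every sample; for the other settings the cause was not tested. The fit without the animal block, where same-numbered samples come from 1 lamb, so that their pairing is given, called 1 locus between muscles and made 1 pairwise call, in 1 locus. When single animals were left out, the joint test of muscles called 1 to 3 loci, 1 to 3 loci were called in a pair, with 1 to 9 calls, and 5 to 8 loci were called between animals. RLE size factors, library sizes without the 4 most counted loci, and a minimum of 360 counts left all 4 counts within 1.5 times. Of 650 values of the named loci under alternatives, 537 stayed on their side of the threshold, 88 lost and 25 gained a call. Only the 149 of called pairs carry a direction, and 0 of these reversed. No joint test was made with only the 8 samples compared, and no test of animals without the block. Depth limits the loci of under about 10 counts a sample, and 90 of the 141 were not tested.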
